A study of Mus musculus with 16 samples.

Results

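The comparison described here set 3T3 cells that received a glycine tRNA fragment with 5 methylated cytosines against 3T3 cells that received the fragment with 4. It used the 4 libraries whose titles name these numbers of 5-methylcytosine (m5C), out of 16 libraries in the series, and every transcript listed for them. 3T3 is an established mouse fibroblast line. All cells were taken through the same lipid transfection, had their medium changed after 4.5 h and were harvested at 12 h, per the labels' protocols. The groups were the transfection reagent without RNA (called empty), 100 nM of the synthetic 3'tsRNA-Gly without m5C, and 100 nM of the same fragment with 4 m5C or with 5 m5C, each with 2 libraries. The labels do not say which cytosines were methylated, nor whether the 4 sites are among the 5. Nor do they say whether the 2 libraries of a group came from separate cultures, and the p-values rest on the spread within such pairs, which may be only technical.

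Transfer RNA fragments, or tsRNAs, are cut from mature or precursor tRNAs and are abundant in sperm and in stressed cells. Cytosine methylation of tRNA is placed mainly by DNMT2 (TRDMT1), which acts on the anticodon loop of a few tRNAs, glycine tRNA among them, and by NSUN2, which acts largely around the variable loop. The mark is known to protect tRNA from cleavage. The series title concerns DNMT2 and sperm small RNA, and the 3T3 experiment asks what the number of m5C in a transfected fragment does to the mRNA of the cells that take it up.

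The 8 libraries of 3T3 cells held 16326238 to 27014080 estimated counts. The 5 m5C libraries held 27014080 and 18849134, and the 4 m5C libraries 23150269 and 16326238, so that the deeper library of each group had the number 1. Of 109282 transcripts listed, 44374 were abundant enough to be tested. None of the 109282 transcript IDs was found in the gene tables used here, so transcripts are given by their Ensembl ID, the planned gene lists were not run, and fibroblast markers were not checked.

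The 4 m5C and 5 m5C libraries also differed in the length of the sequenced fragments. This length can be read from the gap between a transcript's length and its effective length, taken here as the median over transcripts of over 5000 nt. It was 238.1 and 228.7 nt in the 4 m5C libraries and 251.9 and 251.3 nt in the 5 m5C libraries. The empty libraries had 248.5 and 245.9 nt and the no m5C libraries 244.8 and 247.8 nt. The 4 m5C libraries were thus the shortest and the 5 m5C libraries the longest of the 8, so that fragment length moved with the groups compared.

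Across the transcriptome the libraries with 5 m5C and 4 m5C were about as far from each other as libraries of the same group. The median size of the log2 difference in level between 2 libraries was 0.306 within 4 m5C and 0.260 within 5 m5C. For the 4 pairs of a 4 m5C with a 5 m5C library it was 0.280, 0.314, 0.290 and 0.330. Pearson's r of log2 levels across transcripts, which are not independent replicates, was 0.917 within 4 m5C, 0.931 within 5 m5C and 0.909 to 0.933 between them. With 2 libraries against 2, an exact permutation test of a single value cannot go below p = 0.333, so these distances carry no test.

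Tested transcript by transcript, 2 of 44374 transcripts, or 0.00451%, passed as different between 5 m5C and 4 m5C, and both were higher with 5 m5C (edgeR quasi-likelihood test over all 8 libraries, Benjamini-Hochberg adjusted p of 0.04996 for each). None was lower. At an unadjusted p under 0.05 there were 2069 transcripts, or 4.66% of those tested, with 1084 (2.44%) higher and 985 (2.22%) lower with 5 m5C. The other comparisons of the same fit gave like shares: 4.44% for 4 m5C against no m5C, 4.89% for 5 m5C against no m5C, 4.36% and 4.93% for 4 m5C and 5 m5C against empty, and 4.69% for no m5C against empty. None of these 5 comparisons had a transcript with an adjusted p under 0.05 in edgeR. They share libraries with one another and with the comparison of 5 m5C against 4 m5C.

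The 2 calls stood at the edge of the threshold. Leaving out any 1 of the 8 libraries ended both, with 0 calls and a lowest adjusted p of 0.07004 to 0.2553 in edgeR, where a group left with 1 library was assumed to vary like the others. Over the 8 fits the log2 differences of the 2 calls were 0.74 to 0.79 and 9.40 to 9.52. Fits without an empty or no m5C library kept all the libraries compared, so there the values could hardly move. The second range is of a transcript at 0 in both 4 m5C libraries, and it rests on the prior count. These narrow ranges are thus no support for the calls. More transcripts were tested in the 8 fits, 47888 to 49158, and each had 1 library fewer to estimate the spread. DESeq2 called 228 transcripts on the same counts, 99 higher and 129 lower with 5 m5C, both edgeR calls among them. It gave an adjusted p to 46423 transcripts. Of the 228, 55 were at 0 in both 4 m5C libraries and 36 at 0 in both 5 m5C libraries.

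**Figure D1:**
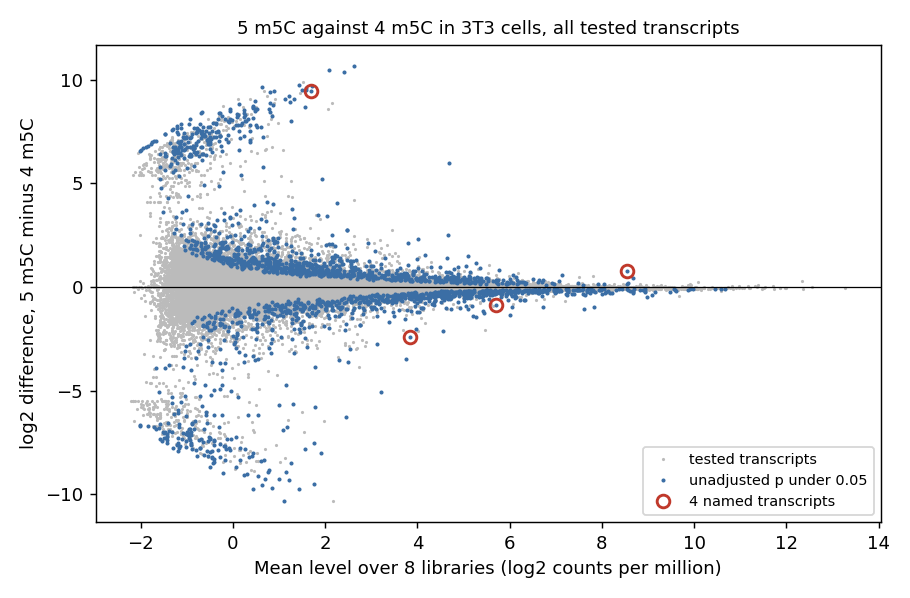
Each point is 1 of 44374 tested transcripts, with its mean level over the 8 libraries on the x axis (log2 CPM, counts per 1000000) and its log2 difference, 5 m5C minus 4 m5C, on the y axis; blue points have an unadjusted p under 0.05 and red circles mark the 4 named transcripts. The cloud narrows toward abundant transcripts, and the arms beyond a log2 difference of about 5 hold transcripts estimated at or near 0 in one of the groups.

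ENSMUST00000118875.7, a transcript of 1420 nt and among the abundant ones at 439.7 TPM on average over the 8 libraries, was higher with 5 m5C. TPM is a level scaled for transcript length and library. In counts per 1000000 counts of the scaled library (CPM) it was at 439.3 and 429.7 in the 5 m5C libraries and at 260.3 and 251.1 in the 4 m5C libraries. The empty libraries held 420.1 and 417.1 CPM and the no m5C libraries 379.2 and 411.1. The 4 m5C libraries lay below the other 6, and the 5 m5C libraries lay just above the other 6. The log2 difference of 5 m5C minus 4 m5C was 0.76 ± 0.05 SE (1.7-fold; 95% interval 0.65 to 0.88; edgeR adjusted p = 0.04996). In the same fit 4 m5C differed from no m5C by -0.63 ± 0.05 SE and 5 m5C by 0.14 ± 0.05, while against empty the values were -0.71 ± 0.05 and 0.05 ± 0.05; none of these passed after adjustment in edgeR. The estimated counts behind the levels were 5972 and 4084 with 4 m5C and 11988 and 8292 with 5 m5C. kallisto, which made the estimated counts, divides reads among isoforms of a gene that share sequence. A difference in this or any other transcript named here may therefore not be one of its gene. With the fragment length of each library as a term, a setting chosen after seeing the data, the log2 difference was 0.61 and the edgeR adjusted p was 0.8065. The unadjusted edgeR p was 0.00291 with the term and 1.56e-06 without it. Because fragment length moved with the groups, the term makes any difference between them less certain. A higher p with it, here and wherever it is used below, cannot tell fragment length and m5C apart.

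ENSMUST00000108939.8, of 1576 nt, was estimated at 0 counts in both 4 m5C libraries after rounding. It was at 118.2 and 82.6 estimated counts with 5 m5C, 89.2 and 67.2 in the empty libraries and 89.2 and 76.2 with no m5C. On the CPM scale these were 4.32 and 4.3 with 5 m5C, 3.58 and 4.16 in empty and 4.35 and 4.28 with no m5C. The 4 m5C libraries again lay apart from the other 6, and the 5 m5C libraries lay within the range of the empty and no m5C libraries. A count of 0 allows up to 3 counts, or 0.131 and 0.184 CPM in the 4 m5C libraries, which covers counting error only. Against that floor per library the transcript was at least 27.4-fold higher with 5 m5C (edgeR adjusted p = 0.04996). kallisto divides reads among the isoforms of a gene that share sequence, so a transcript can be estimated at 0 while its gene is expressed, and the sum over the gene was not analysed here. With fragment length as a term the fitted log2 difference was 10.09, against 9.48 without it, and the edgeR adjusted p was 0.8065; such fitted values rest on the prior count and are no bound.

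On the lower side no transcript passed, and the 2 of lowest p are given as values. ENSMUST00000220737.1, of 834 nt, was at 35.8 and 34.5 CPM with 5 m5C and at 62.8 and 67.4 CPM with 4 m5C. It was at 46.7 and 51.9 CPM in the empty libraries and at 60 and 58.2 CPM with no m5C. The groups did not overlap, and the order of their means was 5 m5C, empty, no m5C and 4 m5C. Here it was the 5 m5C libraries that stood farther from the rest. The log2 difference was -0.89 ± 0.07 SE (edgeR adjusted p = 0.08615, not passed), and 5 m5C differed from no m5C by -0.75 ± 0.07 and from empty by -0.49 ± 0.07 in the same fit. With fragment length as a term the log2 difference was -0.64.

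ENSMUST00000102782.3, of 445 nt, was at 6.41 and 5.54 CPM with 5 m5C and at 26.9 and 36.7 CPM with 4 m5C. The empty libraries held 8.25 and 10.5 CPM and the no m5C libraries 9.23 and 9.51. Both 4 m5C libraries lay far above the other 6, and both 5 m5C libraries lay just below them. The log2 difference was -2.40 ± 0.20 SE (edgeR adjusted p = 0.08615, not passed). The differences from no m5C were 1.76 ± 0.20 for 4 m5C and -0.65 ± 0.20 for 5 m5C. With fragment length as a term the log2 difference of 5 m5C minus 4 m5C was -1.54 (edgeR adjusted p = 0.96), which cannot tell fragment length and m5C apart.

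**Figure D2:**
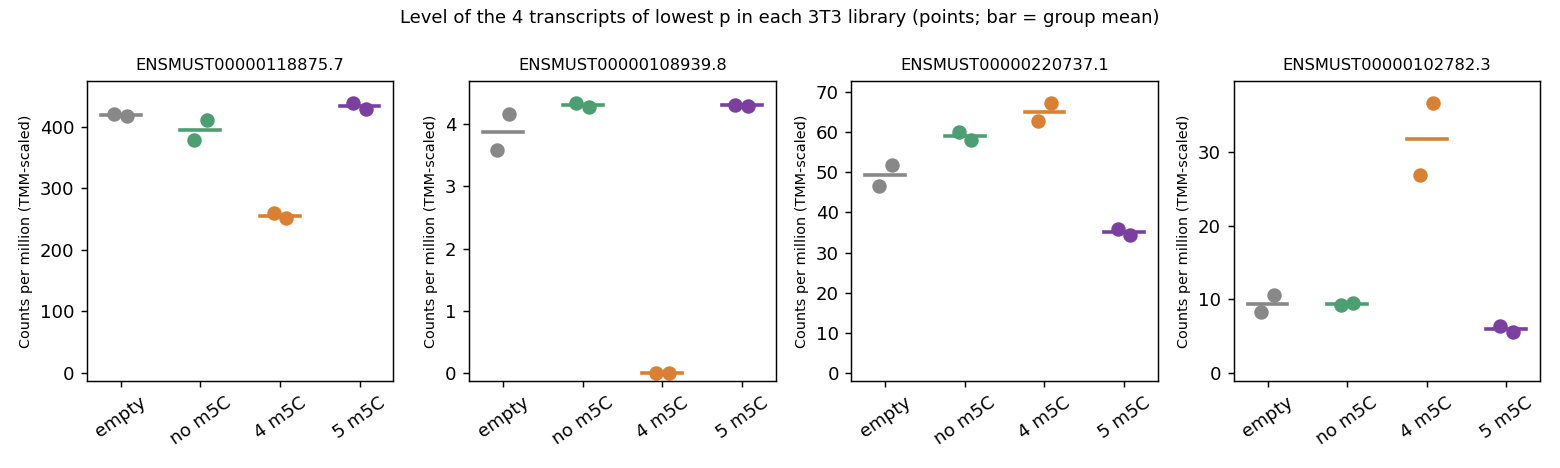
Each panel shows 1 of the 4 named transcripts in CPM of the TMM-scaled library (y axis) for the 2 libraries of each 3T3 group (points, x axis), with the group mean as a bar. In the first, the second and the fourth panel the 4 m5C libraries stand farthest from the other 6, and in the third the 5 m5C libraries do.

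Another 5 transcripts came close to the threshold, all higher with 5 m5C, so that 9 of 44374, or 0.0203%, had an edgeR adjusted p under 0.10, with 7 higher and 2 lower. They were picked out after their values were seen. Of the 9, 4 were estimated at 0 in both 4 m5C libraries. In addition to ENSMUST00000108939.8 these were transcripts of 4413, 2194 and 1911 nt, at 79.5 to 165.1, 94.2 to 103.5 and 147.5 to 254.9 estimated counts in the 5 m5C libraries. They were not silent elsewhere: the no m5C libraries held 90.4 and 84.1, 86.8 and 82.7, and 106.4 and 61.6 estimated counts of them. In 7 of the 9 both 4 m5C libraries lay outside the range of the other 6 libraries, and in 4 of the 9 both 5 m5C libraries did. A low p between these 2 groups itself favours such positions, so these counts carry no test. Over all tested transcripts the 4 m5C libraries lay above the other 6 in 3.43% and below in 3.37%. For 5 m5C the shares were 5.49% and 3.68%.

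The other 2 of the 9 followed a different pattern. They were a pair of 2202 nt with the same estimated counts in every library, and so carry 1 measurement. They were at 9.6 and 10.1 CPM with 5 m5C and 8.25 and 9.63 CPM in the empty libraries, against 1.18 and 1.72 CPM with 4 m5C and 1.76 and 1.58 CPM with no m5C. The 5 m5C and empty libraries were high and the 4 m5C and no m5C libraries low, without overlap (log2 difference of 5 m5C minus 4 m5C 2.77, edgeR adjusted p = 0.08615, not passed).

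Estimates of 0 in one group were seen in every group. Counted over all 109282 transcripts, 19 (0.0174%) were at 0 in both 4 m5C libraries and at 10 or more estimated counts in each of the other 6. The same count was 18 (0.0165%) for empty, 18 (0.0165%) for no m5C and 8 (0.00732%) for 5 m5C. Between the 2 groups alone, 313 tested transcripts (0.705%) were at 0 in both 4 m5C libraries and above 0 in both 5 m5C libraries, and 161 (0.363%) were the reverse. The 313 had a median level of 0.835 CPM with 5 m5C, and the 161 a median of 0.969 CPM with 4 m5C. The 5 m5C library of each number was the deeper one, and the part of depth in this excess was not tested.

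Among the 2069 transcripts with an unadjusted p under 0.05, or 4.66% of those tested, either group could be the one that stood apart. A low p between these 2 groups itself favours such positions. The counts of the 2069 therefore carry no test and are not comparable with the shares over all tested transcripts. The 4 m5C libraries alone lay outside the range of the other 6 in 369 of the higher and 269 of the lower transcripts. The 5 m5C libraries alone did so in 319 of the higher and 361 of the lower. Both groups did in 118 and 84, and neither did in 278 and 271. Over all tested transcripts both 5 m5C libraries lay above the other 6 in 5.49% and below them in 3.68%. For 4 m5C the shares were 3.43% and 3.37%, for no m5C 3.87% and 3.79%, and for empty 3.59% and 3.79%.

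The median log2 difference of 5 m5C minus 4 m5C moved with the level of the transcripts, which is given as a description with no test. Among transcripts with a mean deposited TPM under 1, the median log2 difference was 0.18, with 61.2% of 10750 higher. At 1 to 3 TPM it was 0.11 (58.6% of 12152 higher) and at 3 to 10 TPM 0.02 (52.5% of 11064). It was -0.03 at 10 to 30 TPM and -0.05 at 30 to 100 TPM, and at 100 TPM or more -0.06, with 13.3% of 1194 higher. The median over all 44374 was 0.01. The values of 5 m5C minus no m5C, which share the 5 m5C libraries, were 0.17 under 1 TPM and -0.08 at 100 TPM or more, and those of 4 m5C minus no m5C were 0.00 and -0.01.

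This tilt was uneven between the 5 m5C libraries. Measured from the mean of the 8 libraries, transcripts under 1 TPM had a median of 0.13 in 5 m5C replicate 1 and 0.28 in replicate 2 on the log2 scale, against 0.04 and -0.03 in the 4 m5C libraries. The empty libraries, at 0.09 and -0.13, and the no m5C libraries, at -0.05 and 0.08, spread about as widely between replicates. At 100 TPM or more the values were -0.03 and -0.09 with 5 m5C, 0.00 and 0.02 with 4 m5C, -0.02 and 0.08 in empty and 0.03 and 0.01 with no m5C. Without 5 m5C replicate 2 the median log2 difference from 4 m5C was 0.06 under 1 TPM and -0.04 at 100 TPM or more. With fragment length as a term both medians turned direction, to -0.11 and 0.02. Within groups, fragment length differed most in 4 m5C, at 238.1 and 228.7 nt, so the term rests largely on that pair. This change of direction cannot tell fragment length and m5C apart. At the abundant end the median was -0.08 with the size factors of DESeq2, -0.03 with library totals alone, -0.02 in both limma fits on deposited TPM and -0.10 without 5 m5C replicate 1.

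**Figure D3:**
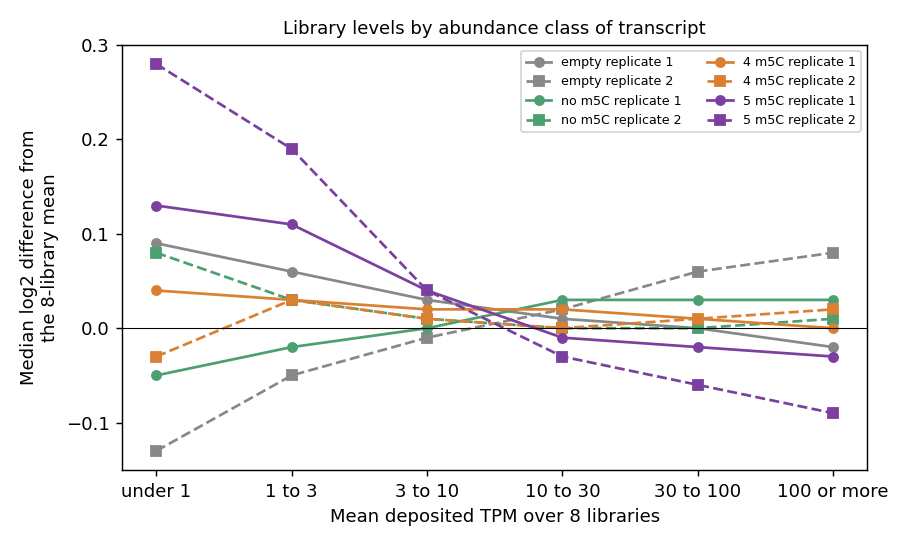
The y axis gives, for each of the 8 libraries, the median log2 difference of its transcripts from the 8-library mean, and the x axis the abundance class of the transcripts by mean deposited TPM; colours are groups, solid lines replicate 1 and dashed lines replicate 2. The 5 m5C libraries run from 0.13 and 0.28 under 1 TPM to -0.03 and -0.09 at 100 TPM or more, and empty replicate 2 runs the opposite way, from -0.13 to 0.08.

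Among abundant transcripts, the short ones had low p-values more often than the long ones. Of the 1194 transcripts of 100 TPM or more, 136 in all had an unadjusted p under 0.05, with 11 higher and 125 lower with 5 m5C, or 11.4% against 4.66% over all tested. Split by length, the share was 35.1% of 134 transcripts under 500 nt, 12.6% of 350 of 500 to 1000 nt, 7.55% of 543 of 1000 to 3000 nt and 2.4% of 167 of 3000 nt or more. The median log2 differences were -0.18, -0.09, -0.06 and -0.05 in the same order. Over all tested transcripts the share had no such gradient, at 5.4%, 3.64%, 4.91% and 5.05% in the same order. The medians were -0.05, 0.03, 0.00 and 0.02. The direction did move with length. Of all tested transcripts with an unadjusted p under 0.05, 35 were higher and 98 lower under 500 nt, and 179 and 222 at 500 to 1000 nt. At 1000 to 3000 nt 454 were higher and 366 lower, and at 3000 nt or more 416 and 299. These are counts of transcripts that share libraries, and the shares carry no test. The only one of the 1194 to pass was ENSMUST00000118875.7, which was higher.

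The short transcripts lay by library roughly in the reverse order of fragment length. Those under 500 nt and of 100 TPM or more had a median of 0.11 in 4 m5C replicate 2, the library with the shortest fragments, and 0.02 in 4 m5C replicate 1, on the log2 scale from the 8-library mean. They had -0.07 and -0.15 in the 5 m5C libraries, which had the longest fragments. The empty libraries had -0.07 and 0.08 and the no m5C libraries 0.02 and 0.03. For transcripts of 3000 nt or more the 4 m5C libraries had 0.02 and -0.01 and the 5 m5C libraries -0.02 and -0.05.

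**Figure D4:**
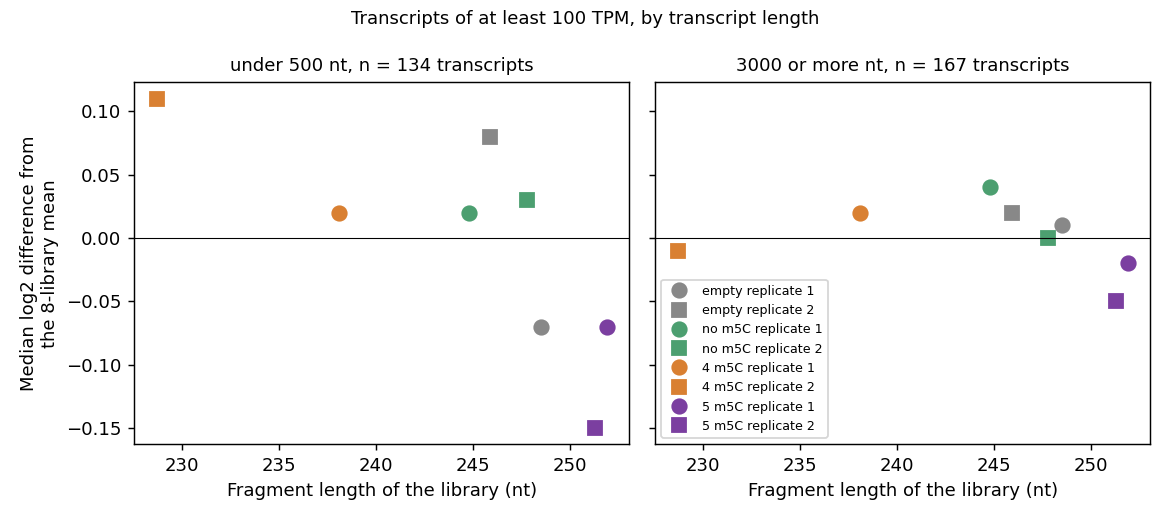
Each point is 1 library, with its fragment length in nt on the x axis and, on the y axis, the median log2 difference from the 8-library mean of transcripts of at least 100 TPM; the left panel holds 134 transcripts under 500 nt and the right panel 167 of 3000 nt or more. The 4 m5C libraries are at 238.1 and 228.7 nt and the 5 m5C libraries at 251.9 and 251.3 nt, and the short transcripts range from 0.11 to -0.15 while the long ones range from 0.04 to -0.05.

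The width of the intervals differed with the level. The 95% interval of 5 m5C against 4 m5C lay within 2-fold in either direction for 17533 of 44374 transcripts, or 39.5%. The share was 97.2% at 100 TPM or more, 95.8% at 30 to 100 TPM, 84.9% at 10 to 30 TPM and 49.5% at 3 to 10 TPM. It was 18.3% at 1 to 3 TPM and 4.82% under 1 TPM. The median standard error of the log2 difference rose from 0.06 at 100 TPM or more to 0.78 under 1 TPM. At 100 TPM or more, the median size of the log2 difference was 0.07 between the group means and 0.07 between replicates in either group. The first compares means of 2 libraries and the second compares single libraries. Replicate noise alone would make the first the smaller, so equal values do not show that the groups differ no more than replicates. For most scarce transcripts the interval of these libraries reached past 2-fold, and a p that missed the threshold does not show that 4 m5C and 5 m5C act alike on them.

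**Figure D5:**
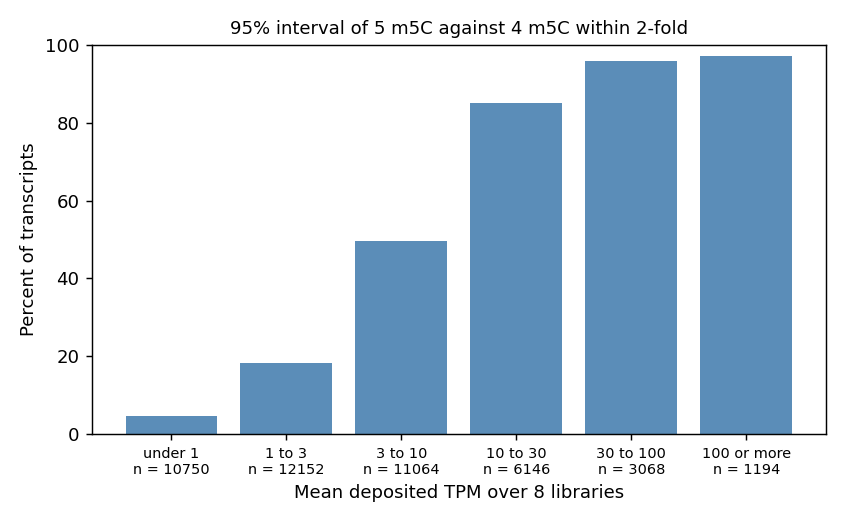
Bars give the percentage of tested transcripts (y axis) whose 95% interval for 5 m5C against 4 m5C lies within 2-fold in either direction, by mean deposited TPM over the 8 libraries (x axis). The share rises from 4.82% under 1 TPM to 97.2% at 100 TPM or more.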

How the data were processed

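The deposited 3T3 files list, per transcript, estimated counts, TPM, length and effective length (other values, in nt). kallisto made these deposited values and the build GRCm38 is named, per the submitters' processing notes; no source used here gives its version. Libraries were made with the TruSeq Stranded mRNA kit, per the labels' protocols. Estimated counts were rounded to whole numbers. Transcripts were kept by filterByExpr, libraries were scaled by TMM, and the 4 groups of 3T3 cells were fitted together in edgeR 4.0.16 (quasi-likelihood test; R 4.3.3). A Benjamini-Hochberg adjusted p under 0.05 over 44374 transcripts was called. The deposited TPM values set the abundance classes and served as an alternative in limma 3.58.1, as log2(TPM + 1) or log2(TPM + 0.1). DESeq2 1.42.0 was a further alternative. Named transcripts are the 2 of lowest p in each direction. The test was checked on simulated counts. Replicates of a group differed by more than counting noise (chi-square per transcript of 6.83 to 8.63). The comparison and lists were chosen with earlier results of these data known. Sperm files were not used here, nor were the planned sums per gene, gene lists and cell type markers, since no transcript ID matched the gene tables. Figures were drawn with matplotlib 3.10.9.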

Additional observations from a re-analysis of the deposited data

How the results depend on the processing

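The 2 calls of 5 m5C against 4 m5C remained with library totals alone, with at least 50 counts in 2 libraries, with a robust prior spread and with identical transcripts counted as 1. There were 228 of 46423 with DESeq2, 34 of 78304 without a filter, and 5 of 37207 in limma on log2(TPM + 0.1), both edgeR calls among each. There were 0 with the size factors of DESeq2 in edgeR (lowest adjusted p = 0.05086), with only the 4 libraries compared (0.2755) and with fragment length as a term (0.222). Limma on log2(TPM + 1) gave 3, with 1 of the edgeR calls among them. Leaving out 1 library gave 0 calls in each of the 8 cases. With the replicate number as a block there were 0 calls (lowest adjusted p = 0.291). Over all tested transcripts, deviations of same-numbered libraries correlated at -0.022 between 4 m5C and 5 m5C. Over the other 5 pairs of groups the correlations were -0.018 to 0.058. No pairing by number was seen in these values. Scarce transcripts with wide replicate spread make up much of them, so they do not exclude a batch shared by number. The 4 named transcripts kept their direction in all 20 alternatives: ENSMUST00000118875.7 passed in 8, ENSMUST00000108939.8 in 7, and ENSMUST00000220737.1 and ENSMUST00000102782.3 in 4 each. These 4 were picked by lowest p in the same libraries that the alternatives refit, so their kept direction is no independent support. The higher and lower counts at an unadjusted p under 0.05 were 1323 and 778 with library totals alone. They were 1023 and 1114 with the size factors of DESeq2 in edgeR, in both cases of 44374 tested. DESeq2 itself gave 1196 and 1540 of 78304, a larger set. The median log2 difference under 1 TPM was 0.26 without 4 m5C replicate 1 and 0.06 without 5 m5C replicate 2. The robust spread, the identical transcripts and the fragment length were chosen after seeing the data. Fragment length moved with the groups compared, so the loss of calls with that term cannot tell the 2 apart. Alternatives per gene were not run. Intervals were widest for scarce transcripts; the parts of depth and of replicate spread in this were not tested.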

Other observations

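Of the 44374 tested transcripts, 652 had at least 1 partner with the same length and the same estimated counts in all 8 libraries, in 322 sets. Each set is counted as several transcripts in the tests but holds 1 measurement. Of the 109282 transcripts listed, 30978 had a count of 0 in all 8 libraries after rounding.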
